A study of Mus musculus with 6 samples.

Results

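The genes described here bring long-chain fatty acids into the fat cell and prepare them for metabolism. They were chosen by name and function, as the fatty acid translocase, the binding proteins, the transport proteins and the long-chain acyl-CoA synthetases that had been listed for this tissue. All 10 listed genes, Cd36, Fabp4, Fabp5, Slc27a1, Slc27a3, Slc27a4, Acsl1, Acsl3, Acsl4 and Acsl5, were among the 14291 genes of the deposited count table. The samples were epididymal white adipose tissue from mice, with 3 libraries labelled wild type, which carried floxed alleles without a stated deletion (Prmt5flox/flox), and 3 labelled Prmt5 knockout (Prmt5AKO). Age, diet and treatment are not given in the labels, and neither is the Cre driver nor the cell type in which Prmt5, an arginine methyltransferase gene, was deleted. The comparison asks how transcript levels in the fat pad differ between the genotypes. The labels do not state that libraries of a genotype came from separate mice, so p-values here measure the spread between libraries, which may be technical.

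Fatty acids released from circulating lipoproteins, or carried on albumin, cross the adipocyte membrane with the help of CD36 and of the fatty acid transport proteins encoded by the Slc27 genes. Inside the cell the long-chain acyl-CoA synthetases join them to coenzyme A, which traps them and makes them substrates for triglyceride synthesis or oxidation. Fatty acid binding proteins carry them through the cytosol, and FABP4 is so abundant in adipocytes that it serves as a marker of the cell type. Many of these genes, among them Cd36, Fabp4, Slc27a1 and Acsl1, are known targets of the nuclear receptor PPARG.

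Total counts ran from 17489530 to 26403882 per library. The check of the genotype labels was Prmt5, with normalised read counts (CPM, scaled with TMM factors) of 37.5, 59.9 and 40.8 in the wild-type libraries, listed here and throughout in replicate order, against 14.8, 22.4 and 28.5 in the knockout libraries. The genotypes did not overlap in Prmt5, which had a log2 fold change of -1.07 (SE 0.34, adjusted p = 0.467, edgeR, genotype as the only term). Libraries also parted in a way that genotype did not set: on the first principal component of log2 CPM (59.9% of the variance) wild-type replicates 1 and 3 and knockout replicate 1 scored -81.2, -48.2 and -56.0, and the other libraries scored 27.5 to 90.6. Xist, the X-inactivation RNA of female cells, was counted in every library at 45.6 to 1044 CPM, which goes against the label of a male depot. Xist stood at 958, 106 and 510 CPM in wild type and 1044, 45.6 and 47.2 CPM in knockout, the same division as on that component. The other 5 sex-linked transcripts listed are not rows of the table analysed here. They are the X-linked Tsix and the Y-linked Ddx3y, Eif2s3y, Kdm5d and Uty. Whether an earlier filter or the annotation left them out is not known. Of 11 epididymis and testis markers 1 was in the table, at 0.533 to 3.01 CPM. The adipocyte genes Adipoq (3351 to 5513 CPM) and Plin1 (837 to 1720.0 CPM) were abundant throughout. Fewer cells of a type and less RNA per cell cannot be told apart in these bulk samples.

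Slc27a1, the main adipocyte fatty acid transport protein gene, was lower in every knockout library than in any wild-type library, by 1.92-fold in the means. Cd36 and Acsl1 were lower in the means by 1.80-fold and 1.81-fold, with overlap between the genotypes. The minor transport protein genes Slc27a3 and Slc27a4 stood higher in the means, by 1.46-fold and 1.71-fold. With genotype as the only term, edgeR's quasi-likelihood test called 0 of the 10 genes higher and 0 lower at a Benjamini-Hochberg adjusted p under 0.05, as it did for all genes (0.0% higher and 0.0% lower). At an unadjusted p under 0.05 it held 1 gene lower, Slc27a1, and 0 higher, against 3.37% and 5.26% of all genes. DESeq2 called 0 of the 10 on the same design, and 271 of all genes, and held 3 of the 10 lower at an unadjusted p under 0.05, where 4.91% of all genes lay. The edgeR count of 1 was 0 without wild-type replicate 1, knockout replicate 2 or knockout replicate 3, fits in which 4.61%, 4.44% and 4.79% of all genes lay under that p. It was 6 without knockout replicate 1, where 36.6% of all genes did.

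A second fit adds a term that parts replicate 1 of both genotypes from replicates 2 and 3, the grouping behind the authors' deposited p-values. The submitters' name for that table holds the word batch without saying what it was, and the fit is called the batch-term fit here. It called 0 of the 10 genes, against 0.385% of all genes higher and 0.119% lower. At an unadjusted p under 0.05 it held 5 of the 10 lower, Cd36, Slc27a1, Acsl1, Acsl3 and Acsl4, where 12.4% of all genes lay, and 1 higher, Slc27a4, where 12.1% lay. The count of 6 was 3 without wild-type replicate 3, knockout replicate 2 or knockout replicate 3, where 17.3%, 11.8% and 11.6% of all genes lay under that p in either direction. The median log2 fold change of the 10 genes was -0.56 with genotype only and -0.63 with the batch term, while the median of all genes was -0.02 and -0.05.

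**Figure D1:**
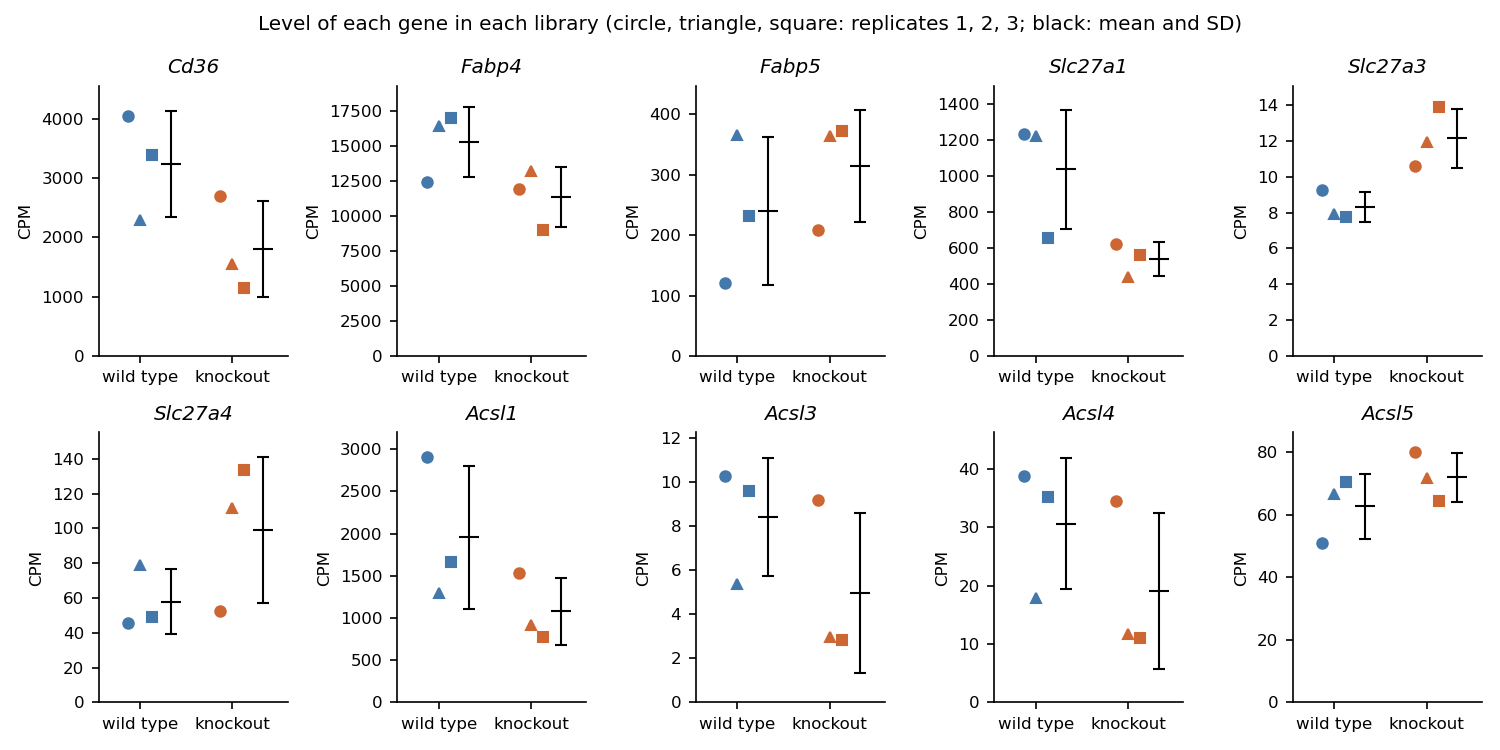
Level of each of the 10 genes in each library, in CPM on linear axes that start at 0, with the mean and SD of 3 libraries in black. Slc27a1 (655 CPM or more in wild type, 623 CPM or less in knockout) and Slc27a3 (9.27 or less against 10.6 or more) are the genes without overlap between genotypes.

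Counted per kilobase of exon (RPKM, which allows genes to be compared), the 10 genes spanned a wide range of levels. Fabp4 stood at 23792 ± 3867 RPKM in wild type (SD, n = 3) and 17692 ± 3378 in knockout, and ranked 1 among all genes in each of the 6 libraries. Cd36 followed at 826 ± 227 and 459 ± 205 RPKM, well apart from Fabp4. In wild type Cd36, Acsl1 (478 ± 206), Slc27a1 (371 ± 119) and Fabp5 (251 ± 129 RPKM) each overlapped the next in that order. Acsl5 (19.9 ± 3.26) and Slc27a4 (14.5 ± 4.60) overlapped each other, as did Acsl4 (5.81 ± 2.12) and Slc27a3 (3.67 ± 0.372), and Acsl3 was lowest at 2.13 ± 0.674 RPKM. In knockout Fabp5 (330.2 ± 97.1) came before Acsl1 (263 ± 97.7) and Slc27a1 (193 ± 33.5), Slc27a4 (24.8 ± 10.5) before Acsl5 (22.8 ± 2.47), and Slc27a3 (5.36 ± 0.731) before Acsl4 (3.61 ± 2.53). Neighbours in the knockout order overlapped except Fabp4 and Cd36, Slc27a1 and Slc27a4, and Acsl5 and Slc27a3.

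Promoters of 8 of the 10 genes, 11 windows in all, were found in the RefSeq table (GRCm38.p6), which gave none for Fabp4 and Fabp5, each running from 250 bases before the transcription start to 50 bases after it. The windows of Slc27a1, Acsl1 and Cd36, which had lower knockout means, and of Slc27a3, the gene without overlap in the other direction, are shown 5′ to 3′ on the strand of the gene to let their composition be seen. Slc27a1 (chr8:71568621-71568920, plus strand) and Acsl1 (chr8:46470787-46471086, plus strand) are shown by the first of their listed starts, and Cd36 (chr5:17835847-17836146, minus strand) and Slc27a3 (chr3:90389889-90390188, minus strand) by the one listed start. The Cd36 start shown, at 17835896, lies inside the counted gene, whose exons reach upstream to 17888959 on the minus strand. Capitals mark, on either strand, the nuclear receptor half-site AGGTCA, the CCAAT box, the GC box GGGCGG, the TATA motif TATAAA and the E-box CACGTG, and matches can run into one another.
Slc27a1: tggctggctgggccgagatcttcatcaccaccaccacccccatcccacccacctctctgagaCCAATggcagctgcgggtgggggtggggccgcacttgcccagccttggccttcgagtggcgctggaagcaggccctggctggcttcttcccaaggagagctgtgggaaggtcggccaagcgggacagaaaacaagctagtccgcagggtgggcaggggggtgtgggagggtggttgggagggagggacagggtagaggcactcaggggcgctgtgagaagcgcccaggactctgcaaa
Acsl1: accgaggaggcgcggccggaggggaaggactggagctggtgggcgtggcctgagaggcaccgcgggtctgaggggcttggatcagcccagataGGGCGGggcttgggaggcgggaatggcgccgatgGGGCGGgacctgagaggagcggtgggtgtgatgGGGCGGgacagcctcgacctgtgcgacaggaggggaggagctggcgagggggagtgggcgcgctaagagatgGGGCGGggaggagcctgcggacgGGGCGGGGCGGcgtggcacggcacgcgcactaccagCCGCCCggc
Cd36: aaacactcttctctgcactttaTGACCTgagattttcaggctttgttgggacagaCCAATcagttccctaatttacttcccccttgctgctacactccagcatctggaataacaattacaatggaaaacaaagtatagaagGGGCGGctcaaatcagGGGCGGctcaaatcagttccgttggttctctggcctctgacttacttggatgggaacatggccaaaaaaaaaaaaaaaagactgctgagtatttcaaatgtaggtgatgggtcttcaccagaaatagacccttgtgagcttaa
Slc27a3: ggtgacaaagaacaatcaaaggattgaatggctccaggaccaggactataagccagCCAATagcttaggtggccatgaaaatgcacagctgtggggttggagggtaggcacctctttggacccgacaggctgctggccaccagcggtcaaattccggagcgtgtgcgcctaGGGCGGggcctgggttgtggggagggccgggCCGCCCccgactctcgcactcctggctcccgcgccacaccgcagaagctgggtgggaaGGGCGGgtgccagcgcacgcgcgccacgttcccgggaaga

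The windows were unlike in composition, at 65.7% GC for Slc27a1, 74.0% for Acsl1, 43.0% for Cd36 and 64.3% for Slc27a3, where the median of all 32851 promoters was 52.7%. Cd36 held 3 CpG pairs and Acsl1 held 30. Acsl1 held 7 copies of the GC box GGGCGG, Slc27a3 held 3, Cd36 held 2 and Slc27a1 held 0, and 35.7% of all promoters held at least 1. These values belong to the starts shown: the other Slc27a1 windows held 1 and 3 GC boxes at 60.7% and 56.3% GC, and the other Acsl1 window held 0 with 4 CpG pairs. The nuclear receptor half-site AGGTCA occurred 1 time, in Cd36, among the 11 windows (16.3% of all promoters). The windows shown for Slc27a1, Cd36 and Slc27a3 each held 1 CCAAT (37.4% of all promoters). TATAAA occurred in 0 of the 11 windows (13.6% of all promoters), and the E-box CACGTG only in another listed window of Slc27a1 (7.15%). The perfect PPAR-type direct repeat with 1 base between half-sites (DR1) occurred in 0 of the 11 windows and in 0.0396% of all promoters.

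Among the binding proteins, Fabp4 (chromosome 3, 10204343 to 10208576, mm10), which encodes the adipocyte carrier also called aP2, was counted at 12409, 16376 and 16967 CPM in wild type. The knockout values were 11894, 13175 and 8952 CPM. Knockout replicate 3 was the lowest library and the genotypes overlapped, since knockout replicate 2 exceeded wild-type replicate 1. The transcript took 1.35% to 1.78% of all counts in wild type and 0.77% to 1.39% in knockout. Its log2 fold change was -0.43 (SE 0.39, adjusted p = 0.658, edgeR). Replicate 1 alone gave -0.06, and replicates 2 and 3 gave -0.59.

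Fabp5 (chromosome 3, 10012585 to 10016610), whose product binds fatty acids in skin, macrophages and endothelium as well as in adipocytes, stood at 121, 366 and 232 CPM in wild type. The knockout replicates held 208, 364 and 372 CPM. Replicate 1 was the lowest library of each genotype, and the ranges overlapped over most of their length. The log2 fold change was 0.39 (SE 0.44, adjusted p = 0.699, edgeR), and it was 0.08 without wild-type replicate 1 and 0.84 without wild-type replicate 2. Of the 901 distinct 50-base words within the counted exons of Fabp5, 198 (22%) also occur in GENCODE M21 transcripts of 5 other genes, led by Gm6166, Gm14328 and Fabp5l2, so its counts are uncertain. The share was 4.0% for Acsl3 (Utp14b), 3.4% for Acsl5 (Zdhhc6) and 1.7% for Slc27a1 (scattered over 176 genes). It was 0.0% for the other 6 genes.

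Cd36 (chromosome 5, 17781690 to 17888959) encodes the membrane glycoprotein that binds long-chain fatty acids at the surface of adipocytes, endothelium and macrophages. It stood at 4049, 2283 and 3393 CPM in wild type and at 2701, 1554 and 1149 CPM in knockout. Wild-type replicate 2 lay below knockout replicate 1, so the genotypes overlapped. The log2 fold change was -0.85 (SE 0.43, adjusted p = 0.589, edgeR), and -0.91 (SE 0.26, adjusted p = 0.129, edgeR) with the batch term. Within replicate 1 the log2 ratio was -0.58 and within replicates 2 and 3 it was -1.07. After loess offsets took out how counts in a library ran with exon GC content and length (length and GC offsets), the log2 fold change was -0.07 (SE 0.29, adjusted p = 0.919, edgeR).

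Slc27a1 (chromosome 8, 71568927 to 71586708) encodes FATP1, the insulin-responsive fatty acid transport protein of adipocytes and muscle, which also has acyl-CoA synthetase activity. It stood at 1235, 1222 and 655 CPM in wild type and at 623, 438 and 558 CPM in knockout. The gap between the genotypes was narrow, because wild-type replicate 3 lay close to knockout replicate 1. The log2 fold change was -0.94 (SE 0.35, adjusted p = 0.533, edgeR). The log2 ratio was -0.99 within replicate 1 and -0.91 over the means of replicates 2 and 3. Those means join unlike replicates: replicate 2 stood at 1222 against 438 CPM, and replicate 3 at 655 against 558 CPM. Over all genes 6.2% had no overlap with the knockout lower and 8.32% with the knockout higher, against 1 of 10 here in each direction.

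Slc27a1 passed the threshold in a few of the alternative fits. With length and GC offsets and the batch term it fell by 1.24 on the log2 scale (SE 0.20, adjusted p = 0.0220, edgeR), where 0.973% of all genes were called lower and 1.71% higher. It also passed with the batch term once wild-type replicate 3 was left out (-1.18, adjusted p = 0.0347, edgeR), where 0.658% of all genes were called lower. It was the one gene of the 10 called in each of these fits. It was not called with the offsets alone (-1.21, SE 0.32, adjusted p = 0.201, edgeR) nor with the batch term alone (-0.94, SE 0.27, adjusted p = 0.130, edgeR).

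Slc27a3 (chromosome 3, 90385233 to 90389927) encodes FATP3, a family member known mainly for its acyl-CoA synthetase activity. It was scarce, at 9.27, 7.91 and 7.74 CPM in wild type and 10.6, 11.9 and 13.9 CPM in knockout, and each knockout library lay above each wild-type library. These values rest on 203 to 281 counts per library. The log2 fold change of 0.55 (SE 0.29, adjusted p = 0.590, edgeR) was 0.14 (SE 0.26) with length and GC offsets. Slc27a4 (chromosome 2, 29802680 to 29817522) encodes FATP4, an acyl-CoA synthetase of intestine and skin that adipocytes also make. It stood at 45.6, 79.1 and 49.1 CPM in wild type and at 52.5, 112 and 134 CPM in knockout. Knockout replicate 1 lay among the wild-type libraries and the other knockout libraries lay above them. The log2 fold change was 0.78 (SE 0.40, adjusted p = 0.590, edgeR). The log2 ratio was 0.20 in replicate 1, where 1 library stood for each genotype, and 0.94 in the others.

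Acsl1 (chromosome 8, 46471037 to 46536051) encodes the predominant long-chain acyl-CoA synthetase of adipocytes, which activates fatty acids for storage and oxidation. It stood at 2906, 1293 and 1669.5 CPM in wild type and at 1532, 921 and 779.9 CPM in knockout. Replicate 1 was the highest library of each genotype, and knockout replicate 1 exceeded wild-type replicate 2. The log2 fold change was -0.86 (SE 0.44, adjusted p = 0.589, edgeR) with genotype only and -0.84 (SE 0.21, adjusted p = 0.112, edgeR) with the batch term. The ratio was -0.92 within replicate 1 and -0.80 within replicates 2 and 3. It was -0.58 (SE 0.25, adjusted p = 0.363, edgeR) with length and GC offsets and -0.46 without wild-type replicate 1.

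The other synthetases were minor transcripts. Acsl3 (chromosome 1, 78657825 to 78707743), whose product works at the endoplasmic reticulum and on growing lipid droplets, stood at 10.3, 5.37 and 9.60 CPM in wild type and 9.19, 2.96 and 2.82 CPM in knockout. Its counted exons share 206 bases on the same strand with GENCODE M21 exons of Utp14b. The exons of these genes also overlap in the deposited table, so reads there could be split or lost. Acsl4 (chromosome X, 142317993 to 142390535), which prefers arachidonic acid, stood at 38.8, 17.9 and 35.3 CPM and then at 34.4, 11.7 and 11.0 CPM. In both genes wild-type replicates 1 and 3 and knockout replicate 1 were high and the other libraries low, the same division as on the first principal component. Log2 fold changes were -0.76 (SE 0.55) for Acsl3 and -0.69 (SE 0.52) for Acsl4. For Acsl3 the log2 ratio was -0.16 in replicate 1 and -1.37 in replicates 2 and 3, and for Acsl4 it was -0.17 and -1.23. Without knockout replicate 1 the log2 fold changes were -1.54 (adjusted p = 0.0661, edgeR) and -1.43 (adjusted p = 0.0593, edgeR). With length and GC offsets they were -0.36 (SE 0.28) and -0.01 (SE 0.18). Acsl5 (chromosome 19, 55253369 to 55296628), a mitochondrial and endoplasmic reticulum enzyme, stood at 50.9, 66.5 and 70.4 CPM in wild type and 79.9, 71.6 and 64.3 CPM in knockout, which overlapped. Its log2 fold change was 0.20 (SE 0.25, adjusted p = 0.724, edgeR).

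**Figure D2:**
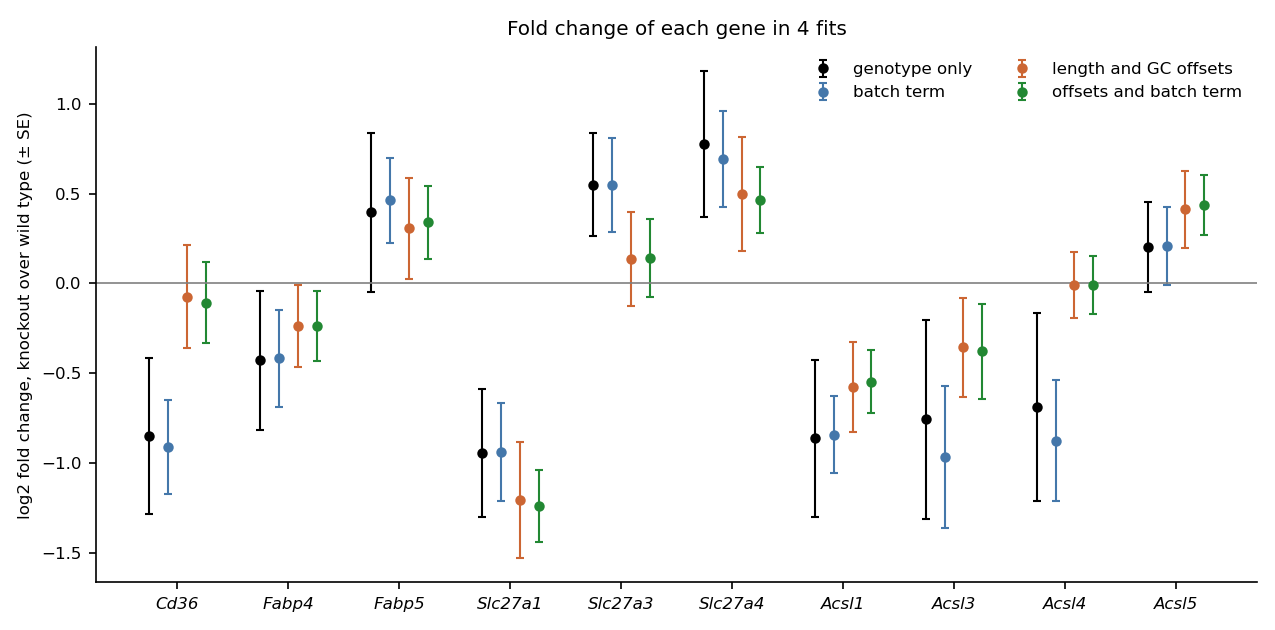
Log2 fold change (knockout over wild type) with its SE for each gene in 4 edgeR fits: genotype only, with the batch term, with length and GC offsets, and with both. Slc27a1 stays between -0.94 and -1.24, while Cd36 goes from -0.85 to -0.07 and Acsl4 from -0.69 to -0.01 once the offsets are added.

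GC content over all annotated GENCODE M21 exons differed widely among the 10 genes, from 38.8% in Cd36 and 39.1% in Acsl4 to 60.6% in Slc27a3. Over the counted exons alone it ran from 38.8% to 60.8%, with the largest departure in Fabp5 (45.2% against 48.2%). The log2 fold changes of the 4 genes with the lowest GC content, Cd36, Acsl4, Fabp4 (42.2%) and Acsl3 (43.1%), were negative, and those of Slc27a4 (56.1%) and Slc27a3 were positive. Slc27a1, at 57.2%, was negative and moved away from 0 with the offsets, from -0.94 to -1.21. Acsl1 (47.3%) and Acsl5 (47.4%) were nearly alike in GC content and stood at -0.86 and 0.20. The median of the 10 genes went from -0.56 to -0.04 with the offsets, and that of all genes from -0.02 to 0.05. The part that sequence composition plays in the differences without offsets was not tested beyond these fits.

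**Figure D3:**
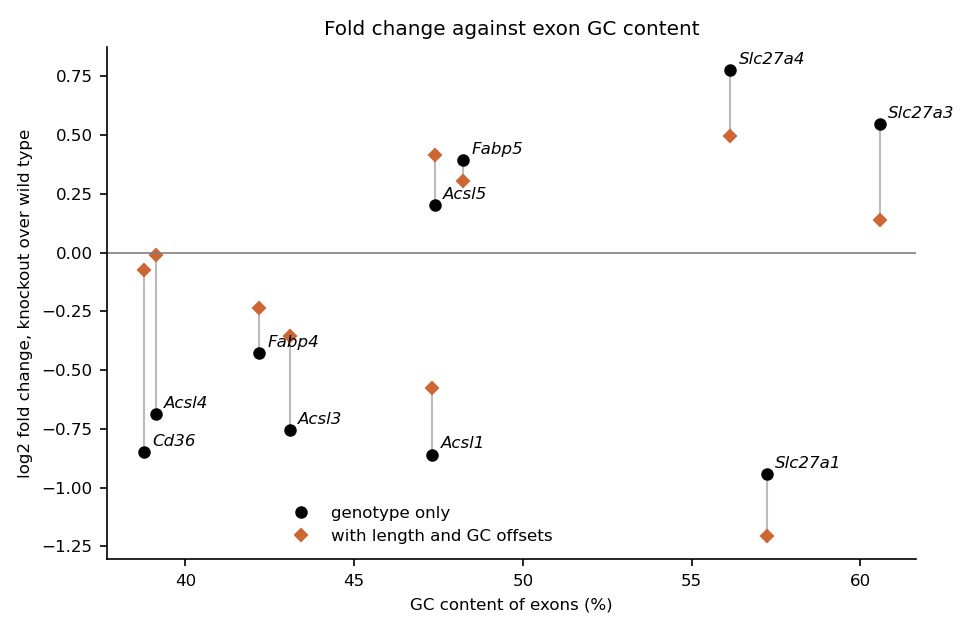
Log2 fold change (knockout over wild type) against the GC content of GENCODE M21 exons in percent, with a black circle for the genotype-only fit and a diamond for the fit with length and GC offsets. The offsets bring the AT-rich genes Cd36 and Acsl4 to within 0.1 of 0 and leave Slc27a1 at -1.21.

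Balance within a family does not depend on how libraries are scaled. Slc27a1 made up 96.6%, 95.0% and 93.7% of the summed counts per kilobase of Slc27a1, Slc27a3 and Slc27a4 in wild type and 92.6%, 82.6% and 83.5% in knockout. All knockout libraries lay below all wild-type libraries (95.1% ± 1.45 and 86.2% ± 5.55, SD, n = 3, exact two-sided permutation p = 0.1, the smallest that 3 against 3 allows). The share differed by -4.00 percentage points within replicate 1 and by -11.3 within replicates 2 and 3. Acsl1 made up 96.5%, 92.4% and 92.8% of the 4 synthetase transcripts in wild type and 91.6%, 89.8% and 89.1% in knockout. Here too the genotypes did not overlap (93.9% ± 2.21 and 90.2% ± 1.30, n = 3, exact two-sided permutation p = 0.1). The difference of -3.74 percentage points was -2.46 without wild-type replicate 1. The log2 ratio of Fabp5 to Fabp4 was -7.25, -6.06 and -6.77 in wild type and -6.41, -5.75 and -5.16 in knockout, a difference of 0.92 with overlap (n = 3, exact two-sided permutation p = 0.2). It was 0.61 without knockout replicate 3.

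**Figure D4:**
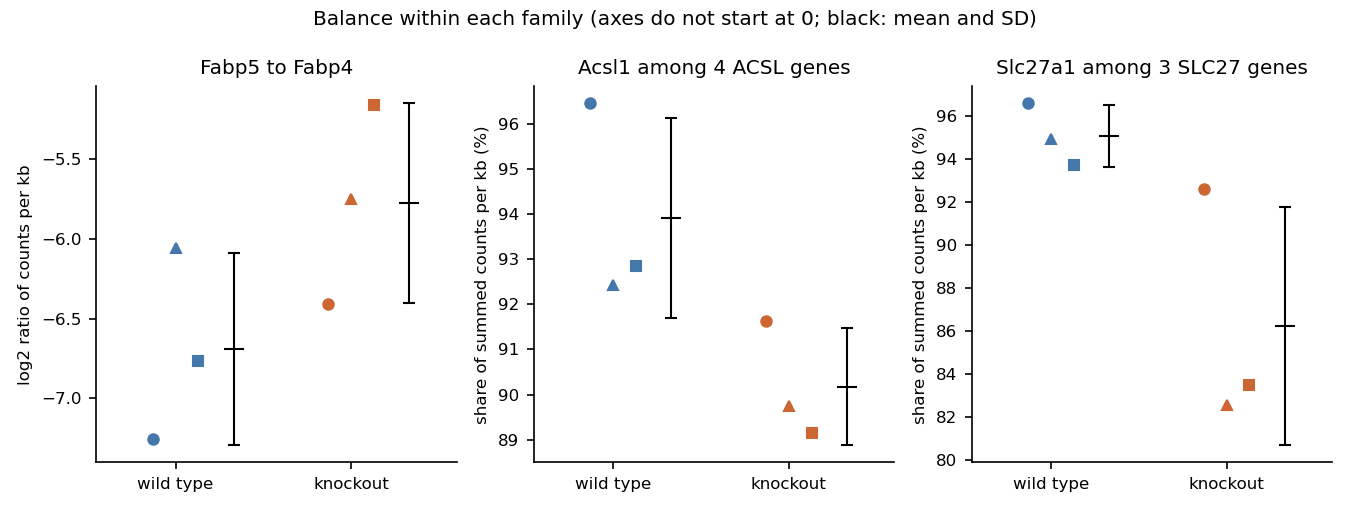
Log2 ratio of Fabp5 to Fabp4, and shares in percent of Acsl1 among 4 synthetase genes and of Slc27a1 among 3 transport protein genes, by library (circle, triangle and square for replicates 1, 2 and 3) with the mean and SD. The axes do not start at 0. Both shares are lower in all knockout libraries, with replicate 1 the highest of each genotype.

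Set against 10 adipocyte markers in the same library (the mean log2 CPM of Adipoq, Lep, Retn, Plin1, Cidec, Lipe, Pnpla2, Pck1, Aqp7 and Gpd1), the abundant genes were lower in knockout means. The markers themselves were not level: 7 of the 10 lay above 0 (median log2 fold change 0.26, genotype-only fit). Their mean log2 CPM was 10.63, 10.73 and 10.48 in wild type and 10.49, 10.97 and 10.92 in knockout. Values set against them therefore also hold differences in the markers. Cd36 lay 1.01 ± 0.51 above the markers on the log2 scale in wild type and -0.07 ± 0.87 in knockout (n = 3, exact two-sided permutation p = 0.2). Acsl1 lay at 0.24 ± 0.64 and -0.78 ± 0.76 (n = 3, exact two-sided permutation p = 0.2). Fabp4 lay at 3.27 ± 0.30 and 2.66 ± 0.42 (n = 3, exact two-sided permutation p = 0.2). All overlapped between genotypes. With length and GC offsets Fabp4 and Acsl1 did not overlap (n = 3, exact two-sided permutation p = 0.1 for each, the smallest that 3 against 3 allows). Knockout libraries lay at 2.74 to 2.97 against 3.01 to 3.17 for Fabp4 and at -0.72 to -0.33 against -0.21 to 0.33 for Acsl1. Cd36 then differed by -0.11. The share of all genes without overlap on this scale was not computed.

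Endothelium, macrophages and muscle also make several of these proteins. Summed over 11 endothelial markers, all of which were in the table, levels were 951 to 1371 CPM in wild type and 1091 to 1372 CPM in knockout, and Pecam1 stood at 164 to 231 and 179.7 to 238 CPM. Summed over all 12 macrophage markers they were 1644 to 2987 and 2254 to 3829 CPM, with Adgre1 at 47.7 to 63.4 and 59.2 to 81.4 CPM. For blood and muscle 7 of 10 markers were in the table, at 311 to 2052 and 337 to 1777 CPM. These 3 sums overlapped between genotypes. All 11 progenitor markers were in the table, and their sum was lower in the knockout without overlap (4535 to 7063 against 3280 to 3906 CPM). All 10 brown and beige adipocyte markers were in the table, and their sum was higher without overlap (166 to 383 against 649 to 989.9 CPM), with Ucp1 at 0.273 to 88.1 and 77.0 to 278 CPM. No marker of these lists was at 0 over all libraries. The part of cell composition in the levels of the 10 genes was not tested.

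Other genes of the pathway, taken from lists, stood on both sides of 0, and 0 of them were called with genotype only. Those named were up to 4 of smallest p per list, with Fabp3 added. Over all genes 0.119% were called lower with the batch term and 0.973% with offsets and batch term. No overlap held for 6.2% of all genes with the knockout lower and for 8.32% with it higher. Of 26 listed genes related to the 10, 15 were in the table and 10 of those lay above 0 (median log2 fold change 0.40). At an unadjusted p under 0.05, 1 was higher and 2 were lower (edgeR, genotype only). Over all genes 5.26% were higher and 3.37% lower at that p, shares that apply to the lists below as well. Acsm3, a medium-chain acyl-CoA synthetase gene of the mitochondrion, stood at 48.5, 15.5 and 31.5 CPM in wild type and 11.6, 5.10 and 6.38 CPM in knockout. It was the one relative called with the batch term, where it fell (-2.05, adjusted p = 0.0436, edgeR), and it fell again with offsets and batch term (-1.34, adjusted p = 0.0403, edgeR). Its relative Acsm5 stood at 21.7 ± 3.33 and 9.44 ± 3.87 CPM (-1.20), also without overlap. Acsf2 (0.57, no overlap) and Acsf3 (0.82, overlap), both mitochondrial acyl-CoA synthetase genes, had positive log2 fold changes. Fabp3, the heart-type binding protein gene, stood at 16.3 ± 14.2 and 37.2 ± 18.3 CPM and was named after its values were seen.

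Genes that supply fatty acids from lipoproteins were present for 15 of 17 listed, with 7 above 0, a median of -0.04, and 0 higher and 1 lower at an unadjusted p under 0.05. Angptl4, an inhibitor of lipoprotein lipase, stood at 462, 730.2 and 474 CPM in wild type and 589, 1020.0 and 1049 CPM in knockout (0.67, adjusted p = 0.592, edgeR). The lysosomal acid lipase gene Lipa stood at 78.4 ± 5.35 and 103 ± 17.8 CPM and the apolipoprotein gene Apoc1 at 107 ± 74.9 and 178 ± 77.9 CPM. Apoc3 was scarce (9.72 ± 10.7 and 2.13 ± 1.12 CPM), and its wild-type mean rested on replicate 2 at 21.9 CPM. It was the one gene of this list called with offsets and batch term (-2.42, adjusted p = 0.0469, edgeR).

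Partners in uptake and its control were present for 19 of 22 listed, with 9 above 0, a median of -0.13, and 1 higher and 1 lower at that p. Ffar2, a receptor gene for short-chain fatty acids, stood at 52.3 ± 10.2 and 100.4 ± 15.3 CPM with no overlap (0.94, adjusted p = 0.400, edgeR). Meox2, which in mouse drives fatty acid transport genes in capillary endothelium, stood at 26.1 ± 8.88 and 11.2 ± 4.35 CPM, also without overlap (-1.23, adjusted p = 0.458, edgeR). The caveolar gene Sdpr (now Cavin2) stood at 628 ± 202 and 297 ± 172 CPM and overlapped. Tspan8 was scarce (2.28 ± 1.91 and 0.679 ± 0.391 CPM). No member of this list was called in the genotype-only fit, the batch-term fit, or with offsets and batch term.

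Genes that bind or hydrolyse acyl-CoA were present for 16 of 21 listed, with 8 above 0, a median of -0.02, and 1 higher and 2 lower at that p. The thioesterase gene Acot4, whose product in mouse is peroxisomal, stood at 11.2, 6.31 and 7.96 CPM in wild type and 3.27, 2.60 and 2.27 CPM in knockout. The mitochondrial thioesterase gene Acot2 stood at 25.4 ± 6.02 and 15.0 ± 0.265 CPM. Both were without overlap, and both fell with offsets and batch term (-1.40, adjusted p = 0.0441 for Acot4 and -0.98, adjusted p = 0.0421 for Acot2, edgeR). In that fit 0.973% of all genes were called lower. Acot11, a thioesterase gene of brown fat, stood at 2.26, 2.02 and 4.09 CPM and at 23.4, 6.74 and 6.58 CPM (2.13, adjusted p = 0.407, edgeR), and knockout replicate 1 was far above the others. Dbil5 was scarce (0.450 ± 0.331 and 1.04 ± 0.230 CPM).

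Of PPARG and its partners all 15 were in the table, with 10 above 0, a median of 0.45, and 2 higher and 0 lower at that p. The median of this list was 0.11 with the batch term and 0.26 with length and GC offsets. Pparg itself was lower without overlap, at 177, 179.8 and 214 CPM in wild type and 139.8, 148 and 91.6 CPM in knockout (-0.59, adjusted p = 0.582, edgeR). Cebpb, an early factor of adipogenesis, stood at 103 ± 24.8 and 173 ± 31.1 CPM (0.74), higher without overlap. The receptor gene Rxrb stood at 58.3 ± 12.1 and 93.8 ± 29.8 CPM (0.69) and overlapped. No gene of this list was called in the 3 fits named above.

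**Figure D5:**
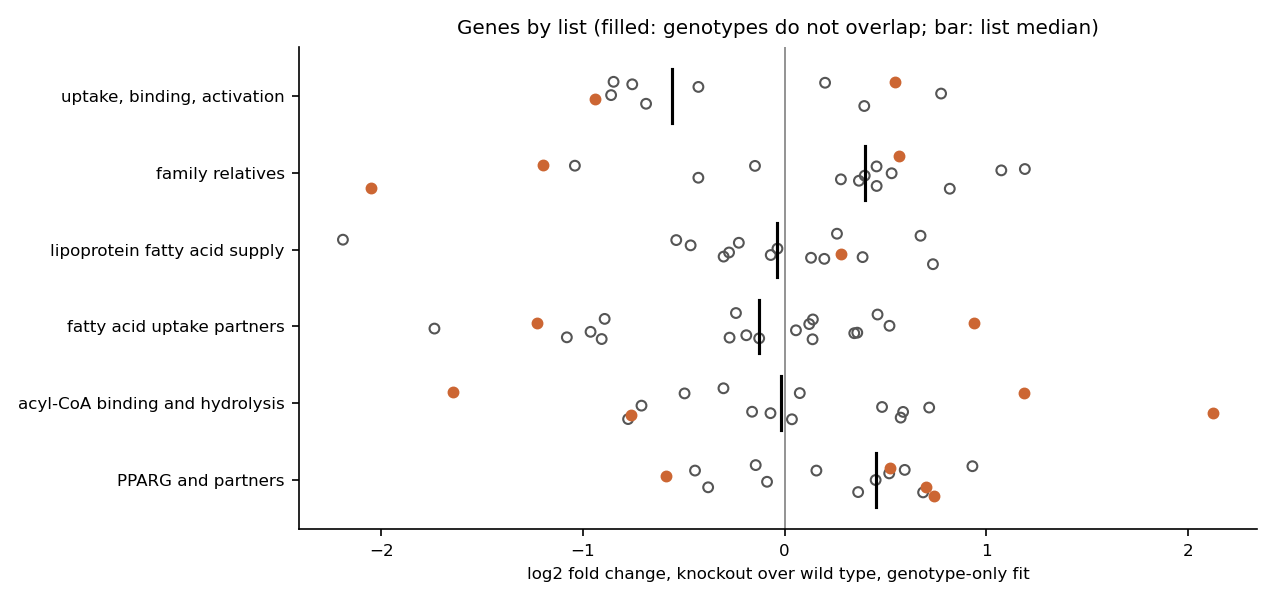
Log2 fold change (knockout over wild type, genotype-only fit) of each gene in the 10-gene group and in the 5 pathway lists, with a bar at each list's median; filled points are genes whose libraries do not overlap between genotypes. The 10-gene group has a median of -0.56, and the lists have medians between -0.13 and 0.45.

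The genes whose log2 CPM ran most like that of Cd36 over the 6 libraries, each centred on its own mean, included Fam172a and Tmem260, with root mean square differences of 0.057 and 0.063. For Fabp4 the nearest were Proca1, Ypel5 and Crls1 (0.047, 0.054 and 0.062), and Crls1 encodes cardiolipin synthase. For Acsl1 they were Ubqln2, Pdzrn3 and Fgfr3 (0.078, 0.078 and 0.11). These likenesses were found among 9535 genes with a mean of at least 10 CPM and describe the 6 libraries, which also share the division on the first principal component.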

How the data were processed

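Polyadenylated RNA was sequenced on an Illumina HiSeq. The authors deposited a single gene table whose unnormalised counts were analysed. Columns of log2 RPKM, log2 fold change, p-value and FDR stand beside them, per the file headers. The deposited log2 fold changes served to learn the authors' design, and the batch-term fit matched them within 2.7e-08. TopHat2, HTSeq 0.6.1 and mm10 stand in the submitters' processing notes. The counting annotation, strand setting and treatment of shared reads were not given in the sources used here, which leaves overlapping genes uncertain. The test was edgeR 4.0.16 run under R 4.3.3 (TMM, filterByExpr, glmQLFit, glmQLFTest, Benjamini-Hochberg over 14291 genes, none of which the filter removed), and the scripts were tested on simulated data. Standard errors come from the fold change and F. Alternatives were RLE, no filter, a strict filter (10 counts), DESeq2 1.42.0, limma-voom 3.58.1, a replicate block, the batch term, replicates 2 and 3 alone, each library left out, and loess offsets (span 0.5) on exonic length and GC content, known from GENCODE M21 for 96.5% of genes and set to the median otherwise. Ratios used exact permutation tests. The genes and lists were chosen with earlier results of these data known. Named genes were the 10, Prmt5, up to 4 of smallest p per list, and 3 nearest patterns each for Cd36, Fabp4 and Acsl1. Of the genes this rule takes, 2 are not reported here. Low counts are the least precise: Acsl3 rests on 57 to 258 counts per library.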

Additional observations from a re-analysis of the deposited data

How the results depend on the processing

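The number of the 10 genes called at an adjusted p under 0.05 was 0 with RLE factors, no filter, the strict filter, DESeq2, limma-voom, the replicate block, the batch term, replicates 2 and 3 alone, and offsets alone. It was 1, Slc27a1, with offsets and batch term, 1 with offsets fitted separately for length and then GC (chosen after seeing the data) and batch term, and 0 to 1 with a library left out. Over all genes the calls were 0 with genotype only, 1 with RLE, 271 with DESeq2, 57 with the replicate block, 72 with the batch term, 50 in replicates 2 and 3 alone, 14 with offsets and 384 with offsets and batch term. The number of the 10 at an unadjusted p under 0.05, a count also added after seeing the data, was 1 with genotype only (8.63% of all genes). It was 3 with DESeq2 (11.4% of all genes), 5 with the replicate block (18.4%), 6 with the batch term (24.5%) and 6 in replicates 2 and 3 alone (30.1%). It was 4 with offsets and batch term (23.6%), 2 and 4 with the separate offsets without and with batch term (14.1% and 23.5%), and 0 to 6 with a library left out (3.89% to 36.6%). Acsl5 turned to -0.034 in replicates 2 and 3 alone and ran from -0.032 to 0.32 with a library left out, including -0.0098 with the batch term and without wild-type replicate 1. Acsl4 turned to 0.060 and 0.057 with separate offsets, without and with batch term. The other 8 genes kept their sign in all 24 alternatives, and so did the family shares, the Fabp5 to Fabp4 ratio and the values relative to adipocyte markers in theirs. The alternative with no filter repeats the genotype-only fit, since the filter removed no gene. Deviations from the group means correlated between same-numbered libraries at 0.624, 0.497 and -0.0834 for replicates 1, 2 and 3. Libraries with different numbers were not correlated in this way, so whether the replicate numbers pair the libraries was not tested. A fit without replicate 1 of a genotype leaves the other replicate 1 library alone in its batch. A single library left out leaves 2 against 3.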
